A study of Mus musculus with 4 samples.

Results

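The 41 genes described here encode the proteins that write, read and erase histone acetylation, and they were measured in sorted round spermatids, male germ cells that have just finished meiosis and are haploid. They were taken by symbol from the 25965 genes of the deposited table: the Brd, Hdac, Sirt, Kat and Myst genes, with Brdt, Ep300, Crebbp, Hat1, Brpf1, Brpf3, Epc1, Epc2, Ncoa1 and Ncoa3. The study set 2 libraries labelled knockout (genotype Wfdc15a -/-, here KO) against 2 libraries labelled heterozygous (genotype Wfdc15a +/-, here Het). Cells of each came from testes of the outbred ICR background by flow sorting, so each group carries at least 1 altered Wfdc15a allele. Wild-type controls, which the design text also names, were not analysed here. Neither the age of the animals, the gate of the sort nor the altered part of the gene is given in the sources used here. The labels do not say whether replicates are separate animals, and p-values therefore measure only the spread between these libraries, which may be technical.

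Acetyltransferases, the writers, add acetyl groups to lysines of histone tails, bromodomain proteins read the mark, and deacetylases and sirtuins erase it. During spermatid elongation histone H4 becomes hyperacetylated before most histones are replaced by transition proteins and protamines. Brdt, a testis-specific bromodomain protein of the BET family, binds this acetylated chromatin, and mice in which it lacks its first bromodomain do not complete spermatid differentiation.

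Libraries held 21160061 and 11268909 reads in KO libraries 1 and 2, against 5774112 and 33853604 reads in Het libraries 1 and 2. Wfdc15a itself had 82.6 and 59.5 RPM (reads of a gene per 1000000 reads of the library) in KO libraries, against 121 and 85.2 RPM in Het libraries. The log2 difference was -0.53 ± 0.29 (SE, n = 2 libraries each; limma, adjusted p = 0.647), and since the altered part of the gene is not known here, this level does not check the labels. The 8 markers of round spermatids summed to 2938 and 2512 RPM in KO libraries, against 2511 and 3826 RPM in Het libraries, and none was at 0. They did not move together: 3 were higher and 2 lower in both KO libraries than in both Het libraries. The protamine gene Prm1 had 308 and 223 RPM in KO libraries, against 529 and 931 RPM in Het libraries (log2 difference -1.42; limma, adjusted p = 0.295), and the transition protein gene Tnp1 had 347 and 231 RPM in KO libraries, against 418 and 800.1 RPM in Het libraries (-1.03; limma, adjusted p = 0.478). The acrosomal gene Acrv1 had 809 and 699.98 RPM in KO libraries, against 510 and 668 RPM in Het libraries. The 8 spermatocyte markers summed to 3216 and 3472 RPM in KO libraries and 3478 and 3029 RPM in Het libraries. Ldha alone gave 1261 and 1350 RPM in KO libraries and 1187 and 1184 RPM in Het libraries. The meiotic gene Sycp3 had 48.1 and 79.8 RPM in KO libraries, against 67.9 and 32.6 RPM in Het libraries. Sums of different genes do not measure the share of a cell type, so the lists are not set against each other. The 15 macrophage markers summed to 364 and 123 RPM in KO libraries, against 38.8 and 40.8 RPM in Het libraries. Of these 15 markers, 14 were higher in both KO libraries than in both Het libraries, and Tyrobp was at 0 in both Het libraries. For Fcer1g, counted among the 14, the nearest values were almost equal: 0.0887 RPM in KO library 2 and 0.0886 RPM in Het library 2. Spermatogonial markers summed to 90.1 and 76.5 RPM in KO libraries, against 59.4 and 52.5 RPM in Het libraries, and all 8 log2 differences were positive, with a median of 1.03. Sertoli markers summed to 49.9 and 47.4 RPM in KO libraries and to 23.0 and 39.7 RPM in Het libraries, with Amh at 0 in all 4. The largest part of that sum in each library was Clu, at 37.2 and 29.6 RPM in KO libraries, against 10.7 and 25.6 RPM in Het libraries. Wt1 was also higher in both KO libraries, at 2.65 and 5.06 RPM, against 1.04 and 2.22 RPM in Het libraries. By contrast, Gata4, Cst12, Sox9 and Rhox5 overlapped between groups. Leydig markers summed to 35.4 and 15.2 RPM in KO libraries, against 5.72 and 3.16 RPM in Het libraries. The 6 peritubular and endothelial markers summed to 87.6 and 77.6 RPM in KO libraries, against 89.7 and 9.98 RPM in Het libraries, so the groups overlapped. Of these, 4 were higher in both KO libraries, but Dcn was highest in Het library 1, at 83.8 RPM.

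The groups overlapped in 24 of the 39 tested members. The smallest unadjusted p-values (limma) were those of Myst2, Hdac6 and Ep300, higher in KO libraries, and of Kat2b, lower in KO libraries. No member passed the threshold over all genes. In simulated libraries of the same number and depth, 20 of 400 2-fold changes (5%) passed it. Of log2 changes of 2, 230 of 400 (57.5%) passed, and of log2 changes of 3, 194 of 200 (97%). The simulation assumed the same spread between replicates for every gene, not estimated from these libraries, so these shares may not hold here. Members that did not pass may still differ. The table gives RPM on a log2 scale, and every gene that reached 1 RPM in 2 or more libraries was compared with limma, two-sided, with Benjamini-Hochberg adjustment over the 15888 such genes. By that rule 39 members were tested, and Sirt6 and Hdac7 were not. At adjusted p under 0.05, 0 of 39 members and 0 of 15888 genes (0%) passed, and limma's voom on the recovered reads also called 0 of each. At unadjusted p under 0.05, 3 members were higher in KO (Myst2, Hdac6 and Ep300), against 6.21% of all genes tested. In the other direction 1 member was lower (Kat2b), against 1.87% of all genes. In bulk libraries such as these, fewer cells of a type and less RNA per cell cannot be told apart.

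The upstream sequences of these 4 genes are shown because they had the smallest p of the tested members (limma). That of Brdt is added as the testis-specific reader of the group. Each is the 120 bases before the RefSeq start site (GRCm38.p6), read 5′ to 3′ on the strand of the gene, with matches to the searched motifs in capitals.
Myst2 (chr11:95310247-95310366, minus strand): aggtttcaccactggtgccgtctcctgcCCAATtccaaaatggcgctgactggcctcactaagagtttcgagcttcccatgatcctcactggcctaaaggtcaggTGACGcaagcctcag
Hdac6 (chrX:7947890-7948009, minus strand): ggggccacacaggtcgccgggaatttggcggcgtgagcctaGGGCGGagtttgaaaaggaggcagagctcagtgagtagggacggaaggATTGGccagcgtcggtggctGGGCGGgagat
Ep300 (chr15:81586094-81586213, plus strand): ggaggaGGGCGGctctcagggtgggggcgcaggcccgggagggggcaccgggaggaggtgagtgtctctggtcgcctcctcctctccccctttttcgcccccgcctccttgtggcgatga
Kat2b (chr17:53566851-53566970, plus strand): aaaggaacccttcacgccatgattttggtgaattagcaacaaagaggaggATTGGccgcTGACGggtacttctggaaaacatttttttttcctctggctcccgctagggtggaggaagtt
Brdt (chr5:107331074-107331193, plus strand): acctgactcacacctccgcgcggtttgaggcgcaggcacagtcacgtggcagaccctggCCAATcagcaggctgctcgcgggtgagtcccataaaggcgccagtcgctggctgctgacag

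The motifs were the cyclic AMP response element TGACGTCA, its core TGACG, the GC box GGGCGG, the CCAAT box CCAAT and the TATA box TATAAA, each searched on both strands. The core lies within the full element. In the 250 bases before the start, a window found for 33 of the 41 members, a GC box stood in 21 (63.6%) of member promoters. The share was 32.7% over all 32851 promoter windows in the RefSeq table. Member windows were those of the start nearest the deposited gene end, as far as 42669 bases away in Sirt1. The wider count took every window, with more than 1 for some genes and no match for level, so the shares are not like for like. The core TGACG stood in 9 member promoters (27.3%, against 17.8% of all), and the full element in 0 of 33 (against 1.55% of all). A CCAAT box was found in 12 member promoters (36.4%, against 33.8% of all) and a TATA box in 1 (3.03%, against 12.4% of all). The median number of CpG dinucleotides was 17 in member windows and 6 over all windows. Among the higher members the letters differed: Myst2 carried the core TGACG and a CCAAT box, Hdac6 a CCAAT box with a pair of GC boxes, and Ep300 a GC box. Kat2b, lower in KO libraries, carried the core TGACG and a CCAAT box, as Myst2 did. The RefSeq start used for Kat2b lay 110 bases inside the deposited gene, so most of its printed window lies within that gene. The start used for Brdt lay 35 bases inside its deposited gene.

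Levels of different genes are compared per length, as RPM per kilobase of annotated exon averaged over the 4 libraries. By this measure Kat8, the MYST acetyltransferase of histone H4 known as MOF, was highest at 68.3, with a range of 61.5 to 75.5 over libraries. It stood at the 92.9th percentile of all genes tested. Next came Hat1, which acetylates newly made histone H4, at 55.1 (42.8 to 70.0), the BET reader Brd2 at 42.9 (41.1 to 44.2), Brdt at 30.1 (28.0 to 34.5) and the class I deacetylase Hdac1 at 29.9 (26.8 to 33.0). The ranges of Kat8 and Hat1 overlapped, as did those of Hat1 and Brd2 and those of Brdt and Hdac1, whereas Brd2 was above Brdt in every library. Ranks 6 to 10 were held by Myst2 (23.3), Epc2 (22.8), Sirt2 (20.6), Kat2b (16.1) and Kat5 (15.6), whose ranges overlapped from each to the next. The lowest 5 were Myst4 at 0.39, Hdac9 at 0.39, Sirt7 at 0.29, Sirt6 at 0.16 and Hdac7 at 0.06. The order of the writers thus ran from MOF at the top to Myst4 near the bottom, over more than 2 orders of magnitude. With the longest transcript as the length, 9 of the first 10 were the same genes.

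**Figure D1:**
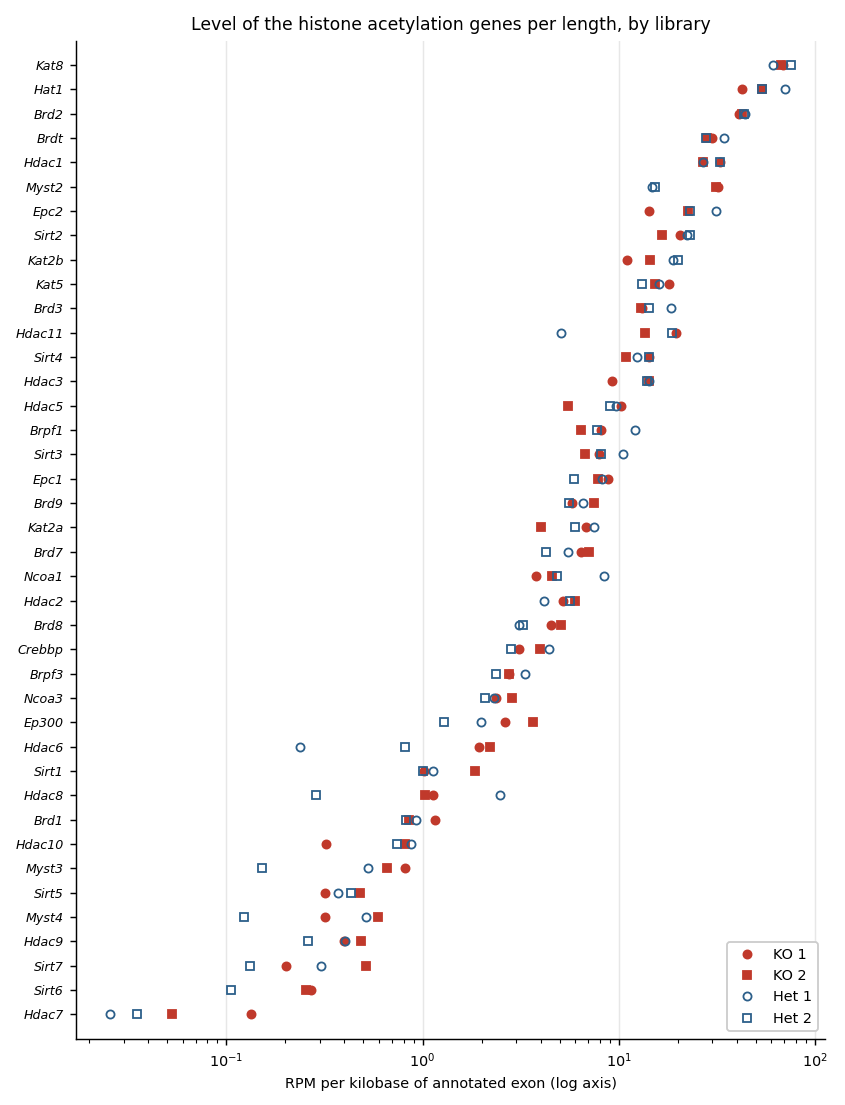
Level of 40 of the 41 members in RPM per kilobase of annotated exon (log axis), with 1 point for each library, filled for KO and open for Het. Kat8 averaged 68.3 at the top and Hdac7 0.06 at the bottom, and a library at 0 (Sirt6 in Het library 1) has no point.

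Among the MYST acetyltransferases, Myst2 (present symbol Kat7, mm10 chr11:95274259-95310246) was the member with the smallest p. It encodes HBO1, which acetylates histones H3 and H4 in complexes built on Brpf or Jade scaffolds. Myst2 had 177 and 173 RPM in KO libraries, against 81.6 and 84.4 RPM in Het libraries. The groups lay well apart, with close agreement between the libraries of each group. The mean was 2.11 times as high in KO, a log2 difference of 1.08 ± 0.23 (SE, n = 2 libraries each; limma, adjusted p = 0.310). With a library left out, the log2 difference lay between 1.05 and 1.10 and the adjusted p varied widely (limma). It was 0.999 without KO library 1 and 0.9996 without KO library 2, where 0 and 5 of all genes passed. It was 0.0202 without Het library 1 and 0.0173 without Het library 2, where 442 and 558 of all genes passed.

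Of the other MYST genes, Myst3 also lay apart between the groups and Kat8, Kat5 and Myst4 did not. Kat8 had 199.7 and 194 RPM in KO libraries, against 178 and 218 RPM in Het libraries, with a log2 difference of -0.0019 (95% confidence interval -0.50 to 0.50). Kat5, the TIP60 enzyme of the NuA4 complex, had 63.1 and 53.5 RPM in KO libraries, against 56.6 and 46.3 RPM in Het libraries. Both genes thus overlapped between groups. Myst3 (present symbol Kat6a), the MOZ enzyme, had 7.51 and 6.03 RPM in KO libraries, against 4.85 and 1.39 RPM in Het libraries. Its groups did not overlap, but Het libraries 1 and 2 held only 28 and 47 reads of it, and their values differed by 1.80 on the log2 scale. The log2 difference was 1.38 ± 0.65 (SE, n = 2 libraries each; limma, adjusted p = 0.626). Without Het library 1 it was 2.28 with adjusted p = 0.0383, without Het library 2 it was 0.47 with adjusted p = 0.711, and without either KO library adjusted p was at least 0.999 (limma). Myst4 (present symbol Kat6b), its paralogue, had 5.34 and 9.94 RPM in KO libraries, against 8.66 and 2.07 RPM in Het libraries, and the groups overlapped.

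Within the MYST family, measured per length, Myst2 took 26.6% and 27.2% in KO libraries, against 15.8% and 14.6% in Het libraries. Kat8 took 57.5% and 58.4% in KO libraries, against 65.8% and 72.4% in Het libraries. Summed over the 5 genes the family reached 120.1 and 115 RPM per kilobase in KO libraries, against 93.4 and 104 RPM per kilobase in Het libraries. The shares of Myst2 and Kat8 and the sum did not overlap between groups, and with 2 libraries each the smallest p an exact permutation test can give is 0.333.

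Ep300 and Crebbp encode the paralogous coactivators p300 and CBP, which acetylate histone H3 at enhancers. Ep300 (mm10 chr15:81586214-81652077) had 37.5 and 52.3 RPM in KO libraries, against 28.2 and 18.3 RPM in Het libraries. Both KO libraries were higher than both Het libraries, with a mean ratio of 1.93 and a log2 difference of 0.96 ± 0.34 (SE, n = 2 libraries each; limma, adjusted p = 0.565). The log2 difference was 1.28 with adjusted p = 0.0428 without Het library 1, 0.65 with adjusted p = 0.332 without Het library 2, and 1.202 and 0.72 with adjusted p of at least 0.999 without KO library 1 and KO library 2 (limma). Crebbp had 41.8 and 53.7 RPM in KO libraries, against 59.9 and 38.2 RPM in Het libraries, and the groups overlapped, with a log2 difference of -0.013 (95% confidence interval -0.71 to 0.69). Ep300 was 45.9% and 48.0% of the pair's RPM per kilobase in KO libraries, against 30.9% and 31.2% in Het libraries. The libraries of each group thus gave nearly the same make-up, although the Ep300 level varied within each group. The macrophage, Leydig, Sertoli and spermatogonial marker sums of the opening were also higher in KO than in Het libraries. Of the 8 round spermatid markers, 3 were higher and 2 (Prm1 and Tnp1) lower in both KO libraries than in both Het libraries. The part of these markers in the higher Myst2, Myst3 and Ep300 levels was not tested.

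Kat2b and Kat2a encode PCAF and GCN5, the alternative catalytic subunits of the SAGA and ATAC coactivator complexes. Kat2b (mm10 chr17:53566861-53672720) had 53.5 and 70.1 RPM in KO libraries, against 91.8 and 97.1 RPM in Het libraries. Both KO libraries were lower, and the Het mean was 1.53 times the KO mean, a log2 difference of -0.62 ± 0.27 (SE, n = 2 libraries each; limma, adjusted p = 0.596). Kat2a had 23.6 and 13.9 RPM in KO libraries, against 26.0 and 20.9 RPM in Het libraries, and the groups overlapped. Kat2b made up 61.9% and 78.3% of the pair per length in KO libraries, against 71.6% and 76.8% in Het libraries, also with overlap.

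Hat1 had 123 and 155 RPM in KO libraries, against 202 and 155 RPM in Het libraries. KO library 2 and Het library 2 were nearly equal, and the log2 difference was -0.36 ± 0.25 (SE, n = 2 libraries each; limma, adjusted p = 0.733). The nuclear receptor coactivators Ncoa1 and Ncoa3, which recruit p300 and CBP, stood in opposite order. Ncoa1 had 32.4 and 39.1 RPM in KO libraries, against 72.2 and 41.4 RPM in Het libraries, with a log2 difference of -0.62 ± 0.33 (SE, n = 2 libraries each; limma, adjusted p = 0.644). Het library 1 alone was clearly higher than the rest. Ncoa3 had 18.7 and 22.5 RPM in KO libraries, against 18.2 and 16.4 RPM in Het libraries, and the nearest KO and Het values were close to each other. The 7 genes of these groups, from Ep300 to Ncoa3, summed to 72.4 and 87.1 RPM per kilobase in KO libraries, against 113 and 90.7 RPM per kilobase in Het libraries.

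**Figure D2:**
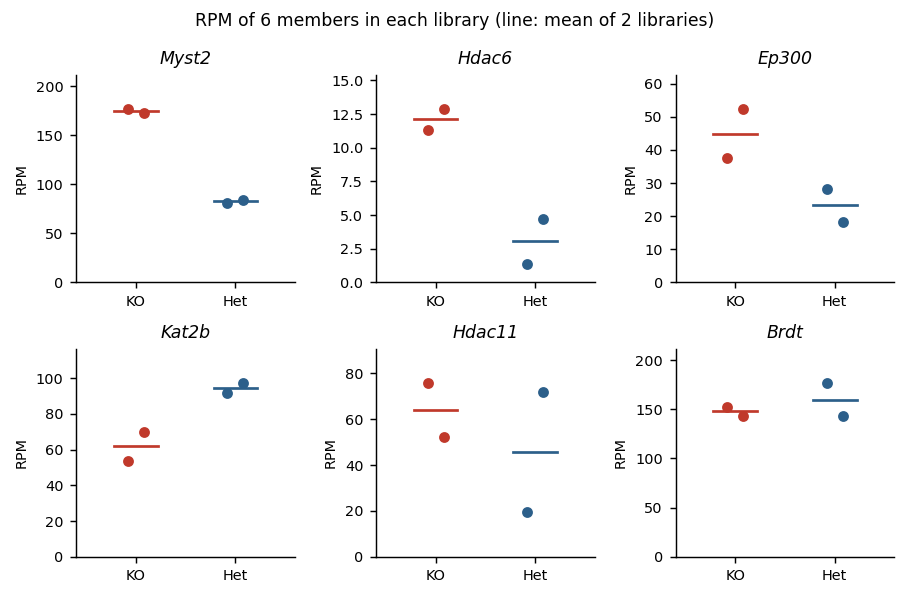
RPM of 6 members in each library, KO left of Het, with points for libraries and a line at the mean of 2. Myst2, Hdac6 and Ep300 were higher and Kat2b lower in both KO libraries, whereas Hdac11 and Brdt overlapped between groups.

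Scaffold subunits hold the writers in their complexes. Epc1 and Epc2 are the alternative enhancer of polycomb subunits of NuA4. Epc2 had 67.2 and 106 RPM in KO libraries, against 148 and 108 RPM in Het libraries, so the groups were separated only by the small gap between KO library 2 and Het library 2. Its log2 difference was -0.58 ± 0.29 (SE, n = 2 libraries each; limma, adjusted p = 0.633). Epc1 had 39.3 and 35.1 RPM in KO libraries, against 36.9 and 26.6 RPM in Het libraries. Epc2 was 62.0% and 74.3% of the pair per length in KO libraries, against 79.2% and 79.4% in Het libraries, and KO library 1 was the lowest.

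Brd8, a bromodomain subunit of the same complex, had 48.0 and 53.9 RPM in KO libraries, against 33.1 and 34.6 RPM in Het libraries. The groups did not overlap, and the log2 difference was 0.59 ± 0.28 (SE, n = 2 libraries each; limma, adjusted p = 0.628). Brpf1, a scaffold of the MOZ and HBO1 complexes, had 55.1 and 43.3 RPM in KO libraries, against 82.3 and 52.8 RPM in Het libraries. The listed gene Gm15492 lies antisense across 16192 bases of Brpf1 and had 64.8 and 49.8 RPM in KO libraries, against 90.7 and 58.8 RPM in Het libraries. The protocol does not keep strand, so reads of these overlapping genes cannot be told apart. Brd1 and Brpf3, the related scaffolds, had overlapping groups: Brd1 had 9.74 and 7.19 RPM in KO libraries and 7.79 and 6.94 RPM in Het libraries, and Brpf3 had 24.0 RPM in each KO library and 28.7 and 20.4 RPM in Het libraries.

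Of the BET readers, which bind acetylated lysines through paired bromodomains, 0 passed at unadjusted p under 0.05 (limma). Brdt had 153 and 144 RPM in KO libraries, against 176 and 143 RPM in Het libraries, and the groups overlapped. Its log2 difference was -0.10 ± 0.23 (SE, n = 2 libraries each; limma, adjusted p = 0.942), with a 95% confidence interval of -0.62 to 0.41. Without Het library 1 the sign turned, to 0.049. Brd2 had 322 and 335 RPM in KO libraries, against 346 and 339 RPM in Het libraries. Both KO values were lower, by little, and the log2 difference was -0.062 with an interval of -0.51 to 0.38.

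Brd3 had 96.9 and 94.95 RPM in KO libraries, against 135 and 105 RPM in Het libraries, with a log2 difference of -0.31 ± 0.25 (SE, n = 2 libraries each; limma, adjusted p = 0.776). Of the summed RPM per kilobase of Brdt, Brd2 and Brd3, Brdt took 35.5% and 33.5% in KO libraries, against 35.5% and 32.6% in Het libraries. Brd2 took 48.9% and 51.02% in KO libraries, against 45.5% and 50.6% in Het libraries. These shares overlapped between groups. Brd3 took 15.7% and 15.4% in KO libraries, against 19.0% and 16.7% in Het libraries, without overlap.

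**Figure D3:**
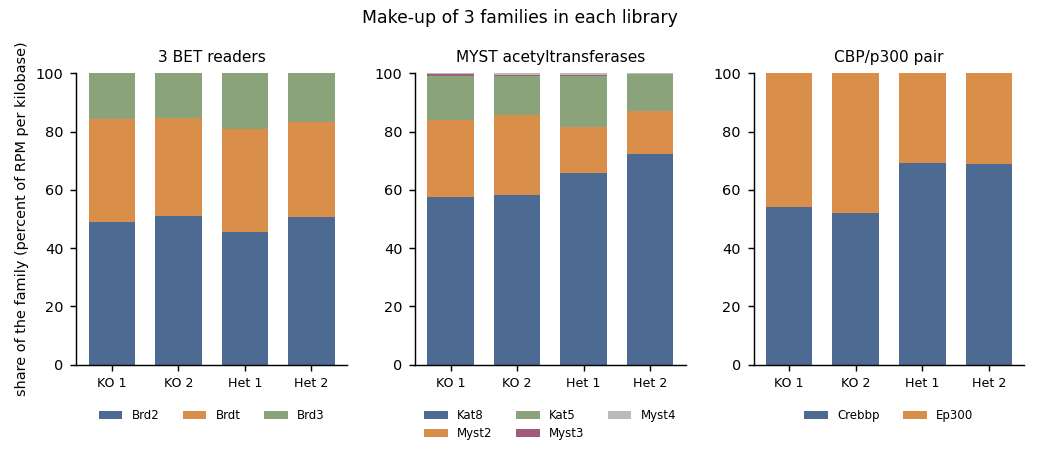
Share of each gene in the summed RPM per kilobase of the genes shown for its family, in percent, with 1 bar for each library and KO left of Het. Myst2 took 26.6% and 27.2% of the MYST family in KO libraries, against 15.8% and 14.6% in Het libraries, and Ep300 45.9% and 48.0% of its pair, against 30.9% and 31.2%, while Brdt took 32.6% to 35.5% of the 3 BET genes over all 4 libraries.

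Brd7 and Brd9 are bromodomain subunits of chromatin remodelling complexes of the SWI/SNF group. Brd7 had 33.9 and 37.1 RPM in KO libraries, against 28.9 and 22.3 RPM in Het libraries. The groups did not overlap, with a log2 difference of 0.48 ± 0.31 (SE, n = 2 libraries each; limma, adjusted p = 0.713). Brd9 had 40.1 and 52.3 RPM in KO libraries, against 45.5 and 38.6 RPM in Het libraries, with overlap.

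Among the erasers, the groups overlapped for all 4 class I deacetylases, which work in the nucleus within corepressor complexes. Hdac1 had 113 and 93.0 RPM in KO libraries, against 92.3 and 114 RPM in Het libraries, and the log2 difference was 0.0033 with an interval of -0.56 to 0.57. Hdac2 had 23.2 and 26.7 RPM in KO libraries, against 18.7 and 25.3 RPM in Het libraries. Hdac1 made up 86.4% and 81.9% of this pair per length in KO libraries, against 86.5% and 85.4% in Het libraries, so Hdac1 was the more abundant paralogue in all 4 libraries. Hdac3, the catalytic subunit of the NCoR complexes, had 37.3 and 58.0 RPM in KO libraries, against 57.8 and 56.4 RPM in Het libraries. KO library 1 was low there and the other 3 were close together, and without KO library 1 the log2 difference was 0.024, against -0.29 ± 0.30 with it (SE, n = 2 libraries each; limma, adjusted p = 0.839). Hdac8, on chromosome X, had 5.48 and 4.97 RPM in KO libraries, against 11.9 and 1.39 RPM in Het libraries, so the Het libraries lay on either side of the KO libraries. The listed gene Gm14858 overlaps 80860 bases of Hdac8 on the other strand. The class I genes summed to 48.4 and 48.3 RPM per kilobase in KO libraries, against 47.7 and 52.9 RPM per kilobase in Het libraries.

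Hdac6 (mm10 chrX:7930120-7947889), a mostly cytoplasmic deacetylase of tubulin with a ubiquitin-binding zinc finger, had the largest log2 difference of the tested members. It had 11.3 and 12.9 RPM in KO libraries, against 1.39 and 4.73 RPM in Het libraries. The groups did not overlap, but the Het libraries differed from each other by 1.77 on the log2 scale. Behind these levels were 240 and 145 reads in KO libraries and 8 and 160 reads in Het libraries. The exact 95% Poisson interval was 0.598 to 2.73 RPM in Het library 1 and 4.02 to 5.52 RPM in Het library 2, and such intervals cover counting error only, since reads after PCR without molecular identifiers are not independent molecules. The log2 difference was 2.24 ± 0.60 (SE, n = 2 libraries each; limma, adjusted p = 0.448), and the mean was 3.96 times as high in KO. Without Het library 2 it was 3.12 with adjusted p = 0.00232, without Het library 1 it was 1.35 with adjusted p = 0.151, and without either KO library adjusted p was at least 0.999 (limma). The macrophage, Leydig, Sertoli and spermatogonial marker sums were higher in KO libraries too. Of the 8 round spermatid markers, 3 were higher and 2 (Prm1 and Tnp1) lower in both KO libraries. The part of these markers in the Hdac6 difference was not tested.

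Hdac11, the class IV deacetylase, had 75.6 and 52.4 RPM in KO libraries, against 19.6 and 71.8 RPM in Het libraries. Het library 1 stood far lower than the other 3 libraries, and the groups overlapped. The log2 difference was 0.75 ± 0.50 (SE, n = 2 libraries each; limma, adjusted p = 0.724). It was -0.19 without Het library 1, 1.68 with adjusted p = 0.00516 without Het library 2, and 0.48 and 1.01 with adjusted p of at least 0.999 without KO library 1 and KO library 2 (limma). Hdac5, a class IIa deacetylase that shuttles between nucleus and cytoplasm, had 90.3 and 48.6 RPM in KO libraries, against 85.2 and 78.9 RPM in Het libraries, and KO library 2 was the low one. Hdac9 of the same class had 5.86 and 7.10 RPM in KO libraries and 5.89 and 3.81 RPM in Het libraries. Hdac10, which deacetylates polyamines, had 1.09 and 2.75 RPM in KO libraries and 2.94 and 2.51 RPM in Het libraries. Hdac7 had 0.898 and 0.355 RPM in KO libraries, against 0.173 and 0.236 RPM in Het libraries, from at most 19 reads in a library. Among Hdac5, Hdac7 and Hdac9, Hdac5 took 95.1% and 91.2% of RPM per kilobase in KO libraries, against 95.8% and 96.8% in Het libraries.

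Sirtuins erase acetyl groups at the cost of NAD. Sirt2, largely cytoplasmic, had 103 and 83.8 RPM in KO libraries, against 112 and 116 RPM in Het libraries. Both KO values were lower, with a log2 difference of -0.30 ± 0.25 (SE, n = 2 libraries each; limma, adjusted p = 0.786). Sirt3, a mitochondrial sirtuin, had 47.4 and 40.02 RPM in KO libraries, against 62.5 and 48.7 RPM in Het libraries, with a log2 difference of -0.34 ± 0.29 (SE, n = 2 libraries each; limma, adjusted p = 0.791). Here the gap between the nearest KO and Het libraries was small. On the other strand, Nfkbib overlaps 778 bases of Sirt2, and Psmd13 overlaps 342 bases of Sirt3. Reads in these overlaps cannot be told apart, since the protocol does not keep strand. Sirt4, also mitochondrial, had 34.3 and 26.3 RPM in KO libraries and 29.8 and 34.1 RPM in Het libraries. The nuclear Sirt1 had 5.43 and 9.85 RPM in KO libraries, against 6.06 and 5.38 RPM in Het libraries, and KO library 2 was the high one. Sirt5 had 1.94 and 2.93 RPM in KO libraries and 2.25 and 2.63 RPM in Het libraries, and Sirt7 had 1.04 and 2.66 RPM in KO libraries and 1.56 and 0.679 RPM in Het libraries. Sirt6 had 0.756 and 0.710 RPM in KO libraries, against 0 and 0.295 RPM in Het libraries. Both KO values were higher than both Het values, and each rested on few reads: 16 and 8 in KO libraries, against 0 and 10 in Het libraries. The count of 0 allows up to 3 reads, or 0.520 RPM, and Sirt6 was below the filter and not tested. Per length the 7 sirtuins summed to 44.5 and 37.4 RPM per kilobase in KO libraries, against 47.0 and 47.1 RPM per kilobase in Het libraries, and Sirt2 made up 45.9% and 44.5% of that in KO libraries, against 47.4% and 48.9% in Het libraries.

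**Figure D4:**
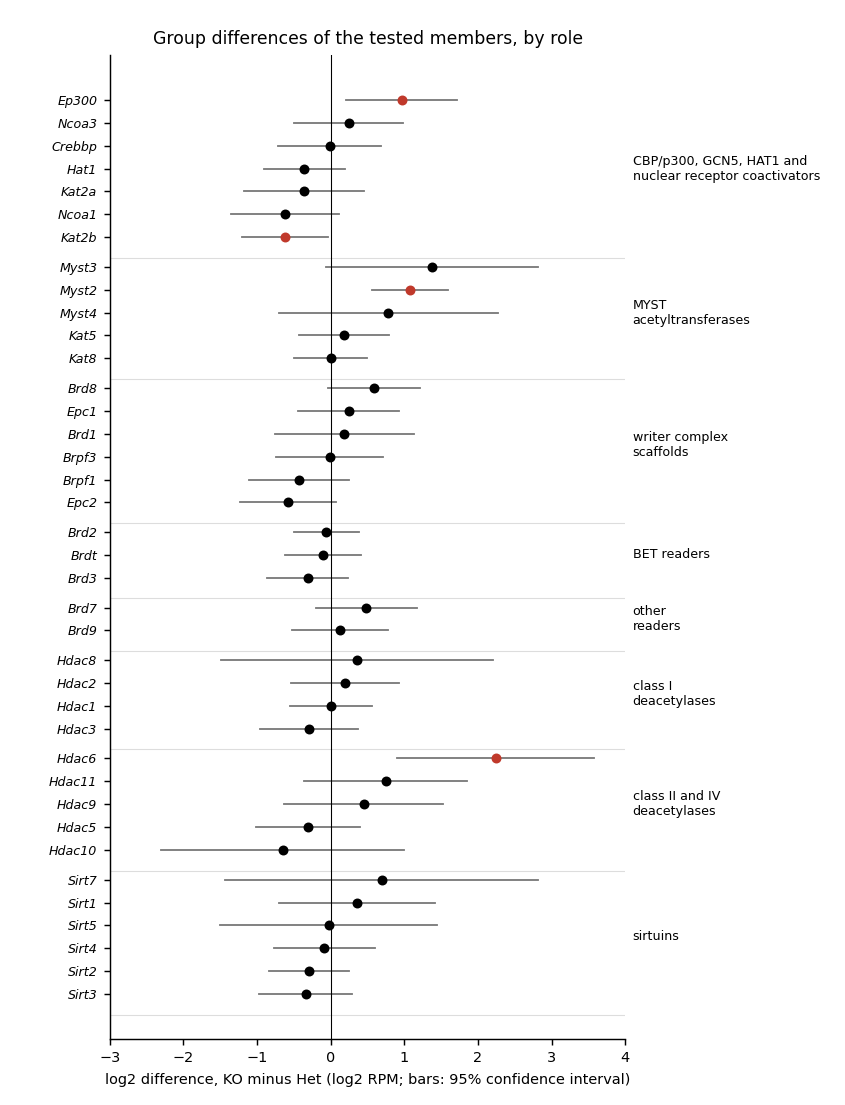
Log2 difference, KO minus Het, of 38 of the 39 tested members by role, with 95% confidence intervals from limma and red points at unadjusted p under 0.05. Myst2, Hdac6 and Ep300 lie to the right and Kat2b to the left with intervals that leave out 0, and none passed the adjusted threshold.

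Over the 39 tested members, 20 log2 differences were positive and 19 negative. Their median was 0.0033, against 0.068 over all 15888 genes, and the median size of a difference, whatever its sign, was 0.34 for members and for all genes. In 7 members (Myst2, Brd7, Brd8, Ncoa3, Ep300, Hdac6 and Myst3) both KO libraries were above both Het libraries, which is 17.9% of the 39 against 23.5% of all genes tested. In 8 members (Hat1, Brd2, Epc2, Sirt2, Kat2b, Brd3, Sirt3 and Ncoa1) both KO libraries were below, 20.5% against 15.0% of all genes. The groups overlapped in the other 24. Among the genes at unadjusted p under 0.05, the share higher in KO was 76.9% on the deposited scale, 66.2% with median-ratio scaling and 55.9% with quantile normalization, and the members numbered 3 higher and 1 lower under each of the 3.

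By median, the spread within groups was smaller for members than for all genes tested, which were not matched to the members for level. The libraries of the KO group differed by a median of 0.32 on the log2 scale over members, against 0.36 over all genes, and those of the Het group by 0.31 for members, against 0.49 over all genes. A 2-fold gap or more between the KO libraries was seen in 2 members (Hdac10 and Sirt7), and between the Het libraries in 6 (Hdac6, Hdac8, Hdac11, Myst3, Myst4 and Sirt7). Of these genes all but Hdac11 had means under 15 RPM in each group. The highest of the 4 values stood in KO library 1 for 8 members, KO library 2 for 14, Het library 1 for 13 and Het library 2 for 4. The lowest stood there for 9, 7, 7 and 16 members, in the same order of libraries. Summed over all 41 members the RPM per kilobase was 455 and 456 in KO libraries, against 488 and 464 in Het libraries.

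The partners of these enzymes were counted in 7 lists of 134 genes, of which 132 were tested. Of the 132, 3 were higher and 1 lower at unadjusted p under 0.05, together 3.03% against 8.08% of all genes tested (6.21% higher and 1.87% lower). Of these genes 0 passed the adjusted threshold (limma), and the median log2 difference was -0.0091, against 0.068 over all genes. In the NuA4/TIP60 list, 1 of 14 genes was higher (7.14%, against 6.21% of all genes) and 0 lower (against 1.87%) at unadjusted p under 0.05, with a median of 0.0083. The higher gene was Trrap, the large scaffold shared by NuA4 and SAGA, at 18.8 and 14.7 RPM in KO libraries, against 9.53 and 5.11 RPM in Het libraries. Its log2 difference was 1.25 ± 0.43 (SE, n = 2 libraries each; limma, adjusted p = 0.557), and it was 1.70 with adjusted p = 0.0338 without Het library 1, 0.81 with adjusted p = 0.339 without Het library 2 and at adjusted p of at least 0.999 without either KO library (limma). Dmap1, another subunit, had 77.2 and 66.4 RPM in KO libraries, against 46.2 and 52.9 RPM in Het libraries. The groups of Dmap1 also did not overlap.

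In the SAGA and ATAC list, 1 of 21 genes was higher (4.76%, against 6.21% of all genes) and 0 lower (against 1.87%) at unadjusted p under 0.05, with a median of -0.12. The gene was Usp22, the ubiquitin protease of SAGA, at 4.35 and 10.8 RPM in KO libraries, against 1.56 and 1.54 RPM in Het libraries. Its log2 difference was 2.15 ± 0.64 (SE, n = 2 libraries each; limma, adjusted p = 0.470), with a wide gap between the KO libraries. Tada2b and Tada2a, the adaptors that join the Kat2 enzymes to SAGA and ATAC, were lower in both KO libraries. Tada2b had 6.99 and 4.53 RPM in KO libraries, against 10.04 and 9.75 RPM in Het libraries, and Tada2a had 4.91 and 4.17 RPM in KO libraries, against 8.14 and 6.26 RPM in Het libraries. Neither passed at unadjusted p under 0.05.

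In the list of MOF and HBO1/MOZ partners, 0 of 16 genes passed in either direction, and the median was 0.16. In 6 of the 16 (37.5%, against 23.5% of all genes) both KO libraries were above both Het libraries, and in 1 (6.25%, against 15.0%) both were below. Phf20, a subunit of the MOF complex NSL, had 31.4 and 26.5 RPM in KO libraries, against 15.2 and 20.9 RPM in Het libraries. Ogt, the enzyme that adds N-acetylglucosamine to proteins and binds NSL, had 25.8 and 33.8 RPM in KO libraries, against 18.4 and 19.5 RPM in Het libraries. Both were higher in both KO libraries. The Jade scaffolds of HBO1 were named after their values were seen. Phf17 (Jade1) had 6.62 and 12.2 RPM in KO libraries, against 5.89 and 6.09 RPM in Het libraries. Phf16 (Jade3) had 7.56 and 7.81 RPM in KO libraries, against 7.27 and 5.88 RPM in Het libraries. Phf15 (Jade2) had 0.945 and 3.64 RPM in KO libraries, against 1.91 and 2.36 RPM in Het libraries, with overlap. Msl2, of the MSL complex, ran the other way, with 5.10 and 7.28 RPM in KO libraries, against 10.04 and 9.63 RPM in Het libraries.

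Of the deacetylase corepressor list, 0 of 36 tested genes were higher (against 6.21% of all genes) and 1 lower (2.78%, against 1.87%) at unadjusted p under 0.05, with a median of -0.12. The lower gene was Suds3, a subunit of the Sin3 complex, at 18.7 and 28.9 RPM in KO libraries, against 36.9 and 48.9 RPM in Het libraries. Its log2 difference was -0.87 ± 0.34 (SE, n = 2 libraries each; limma, adjusted p = 0.586). The histone-binding subunit Rbbp7 had 24.1 and 19.4 RPM in KO libraries, against 15.8 and 9.28 RPM in Het libraries. Rcor1, the CoREST scaffold, had 36.7 and 32.7 RPM in KO libraries, against 52.8 and 51.2 RPM in Het libraries. Both lay apart between groups, in opposite directions.

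Among 25 other readers of acetyl-lysine, 0 passed in either direction and the median was -0.12. Atad2b, Dpf3 and Mllt1 were lower and Baz1a higher in both KO libraries. Dpf3, a SWI/SNF subunit with paired PHD fingers, had 95.9 and 104 RPM in KO libraries, against 144 and 137 RPM in Het libraries. Of the 9 tested genes of histone hyperacetylation and removal in spermatids, 0 passed in either direction, with a median of 0.13. Huwe1, a ubiquitin ligase, had 99.4 and 83.9 RPM in KO libraries, against 65.8 and 57.6 RPM in Het libraries. Pygo2, a reader of methylated histone H3, had 6.33 and 4.70 RPM in KO libraries, against 10.04 and 8.98 RPM in Het libraries, so these genes lay apart in opposite directions.

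The list of acetyl-CoA and NAD supply had a median of 0.33 over 11 genes, and of 0.15 without KO library 1. At unadjusted p under 0.05, 1 of them was higher (9.09%, against 6.21% of all genes) and 0 lower (against 1.87%). The gene was Acly, which makes acetyl-CoA from citrate, at 15.5 and 19.1 RPM in KO libraries, against 9.53 and 9.39 RPM in Het libraries. Its log2 difference was 0.86 ± 0.37 (SE, n = 2 libraries each; limma, adjusted p = 0.596). Acss2, which makes acetyl-CoA from acetate, had 109 and 87.5 RPM in KO libraries, against 75.5 and 81.9 RPM in Het libraries. Nmnat1, a nuclear enzyme of NAD synthesis, had 31.4 and 29.5 RPM in KO libraries, against 18.4 and 26.1 RPM in Het libraries. In 5 of the 11 genes (45.5%, against 23.5% of all genes) both KO libraries were above both Het libraries, and in 0 (against 15.0%) both were below. The macrophage, Leydig, Sertoli and spermatogonial marker sums were higher in the KO libraries as well. Of the 8 round spermatid markers, 3 were higher and 2 (Prm1 and Tnp1) lower in both KO libraries. The peritubular and endothelial sum overlapped between groups. The part of these markers in the values of the lists was not tested.

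**Figure D5:**
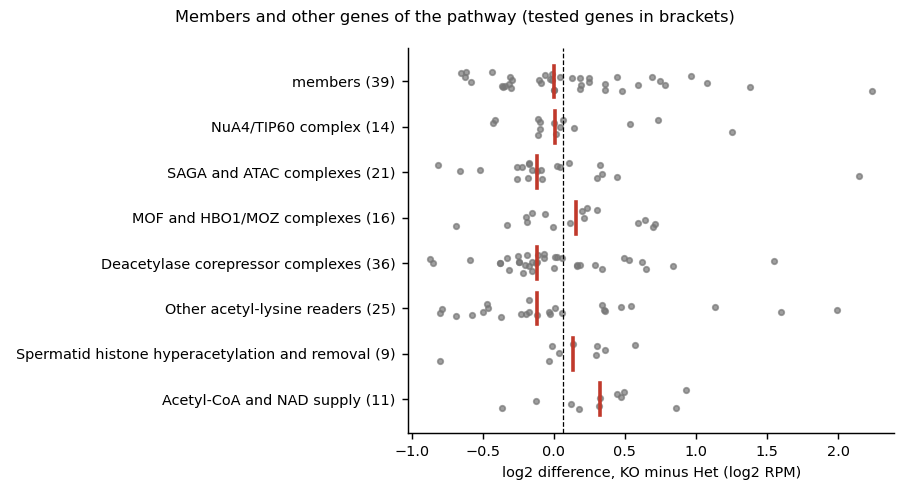
Log2 differences, KO minus Het, of the members and of 7 lists of other pathway genes, with 1 point for each tested gene, a red bar at the median of the list and a dashed line at the median of all genes tested (0.068). List medians ran between -0.12 and 0.33.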

How the data were processed

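The deposited table gives log2 RPM, reads scaled by the authors to the total of each library, with mm10 coordinates. Per the labels' protocols, sorted round spermatids were amplified with Smart-seq2 (15 PCR cycles) and tagmented with Nextera XT, without strand or molecular identifiers. The submitters' processing notes list HISAT2 2.1.0, mm10, Trim Galore 0.6.6 and FastQC 0.11.8. The counter, annotation and filters were not given in the sources used here. In each library a gene without reads was listed at 0.9 of a read, and 99.95% to 100.0% of values per library came out as whole reads within 0.02.

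All genes reaching 1 RPM in 2 or more of 4 libraries were compared with limma 3.58.1 (R 4.3.3; empirical Bayes with a variance trend, no block), at Benjamini-Hochberg adjusted p under 0.05. Exon lengths came from GENCODE M21. The code was tested on simulated data. Members and lists were chosen with earlier results of these data known. All members may be named, with full statistics for the 8 with the smallest p and up to 2 per role, the 10 highest and 5 lowest by level, and up to 4 genes per list by p. The result of 1 member is not reported here, though the counts and medians include it. Alternatives covered scaling, scale, filter, variance model, array weights, each library left out, a replicate block, voom on recovered reads, thresholds and transcript length. SciPy 1.17.1, pandas 2.3.3, numpy 2.4.6, Python 3.11.15 and matplotlib 3.10.9 were used.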

Additional observations from a re-analysis of the deposited data

How the results depend on the processing

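At these depths 1 read was worth 0.0295 to 0.173 RPM, which sets the smallest step of a level. Genes past adjusted p 0.05 (limma) numbered 0 as reported, 1 with log2(RPM + 1), 180 with no filter, 66 with the replicate block, and 0 to 558 when a library was left out (442 without Het library 1, 558 without Het library 2, 0 without KO library 1, 5 without KO library 2). Members past it numbered 2 with no filter (Myst2 at 0.0164 and Hdac6 at 0.0215), 1 with the block (Hdac6 at 0.0482) and 0 to 3 with a library left out. They were Myst2, Ep300 and Myst3 without Het library 1, and Myst2 (0.0173), Hdac6 and Hdac11 without Het library 2, while 0 passed without either KO library. Fits without a library assume that the lone library varies like the other group. Same-numbered libraries correlated at -0.076 in their deviations, so the numbers did not pair the libraries by this measure. Members at unadjusted p under 0.05 numbered 7 with no filter, 2 without the variance trend, 2 at a threshold of 0.01, 6 with voom and 3 to 8 with a library left out. Members without overlap between groups numbered 15, and 25 to 29 with a library left out, where fewer libraries make separation easier. The log2 difference of Myst2 stayed between 1.02 and 1.11 in 13 alternatives.

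Without Het library 1 the sign turned for Brdt (0.049), Hdac11 (-0.19), Hdac2 (-0.024) and Cdyl (-0.037), without KO library 2 for Brd9 (-0.064), and without KO library 1 for Hdac3 (0.024). At the other end the library left out gave -0.25 for Brdt, 1.68 for Hdac11, 0.41 for Hdac2, 0.76 for Cdyl, 0.32 for Brd9 and -0.61 for Hdac3. The list medians also moved. That of the MOF and HBO1/MOZ partners was 0.10 with median-ratio scaling, 0.059 with quantile normalization, 0.20 at 5 RPM and 0.068 to 0.23 with a library left out. The corepressors gave -0.17 with median-ratio scaling, -0.053 with voom and -0.15 to -0.050 with a library left out. The spermatid list gave 0.074 with median-ratio scaling and 0.029 to 0.19 with a library left out, and the acetyl-CoA and NAD list 0.21 with quantile normalization and 0.15 to 0.26. The SAGA and ATAC list ran between -0.12 and 0.11 with a library left out, and the other readers between -0.27 and 0.043. The cause was not tested for these changes.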
